A study of Drosophila melanogaster with 4 samples.

Results

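The 202 H3K27ac clusters described here lie on chromosome 4 and on 6 heterochromatic scaffolds of the Drosophila melanogaster genome, and form a small part of the 7474 enriched clusters of the list that the authors made for the replicate set, called the combined list. They were chosen by position alone, as all enriched regions listed on chromosome 4 (90 clusters) or on 2LHet, 2RHet, 3LHet, 3RHet, XHet and YHet (112 clusters). The unplaced sequence U, with 57 clusters, was left out. Acetylation of histone H3 at lysine 27 was measured by ChIP-seq, the sequencing of DNA recovered with an antibody against the mark, in embryos of the wild-type strain Oregon-R labelled as 14 to 16 h old, pooled from population cages and fixed with 1.8% formaldehyde. The 4 libraries were 2 immunoprecipitated with an H3K27ac antibody, replicates 1 and 2, and 2 inputs, each belonging to a single ChIP replicate, and all shared the wild-type genotype and the age. The sex of the embryos is not given in the labels. Each ChIP replicate has a list of clusters with a score, the authors' own value for each cluster within its list on a scale that is not stated, on FlyBase release 5 of the genome, and no read counts, so the depth is unknown. Whether the replicates are separate embryo collections is not stated, so their spread may be technical. As whole embryos were used, fewer nuclei carrying the mark and less of the mark per nucleus cannot be told apart.

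H3K27ac is laid down in flies by the acetyltransferase Nejire, the homologue of CBP, and marks active promoters and enhancers. Chromosome 4 is the smallest chromosome and is unusual in mixing genes with repeats: much of it carries the heterochromatin protein HP1a and methylation of H3 at lysine 9, and the chromosome-specific protein POF binds its active genes, which are nevertheless transcribed at levels like those of other chromosomes. The heterochromatic scaffolds hold sequence from around the centromeres and from the Y chromosome, made mostly of transposons and other repeats with scattered genes, among them some such as light and rolled that need heterochromatin around them for normal expression. The Y chromosome carries male fertility genes that are transcribed in the testis. RefSeq lists 114 genes on chromosome 4 of release 6 of the genome, 80 of them protein-coding, including the Hedgehog pathway effector ci, the eye regulators ey and toy, and the Wnt pathway effector pan. No annotation of release 5 was used here, so no gene is placed at a cluster and no sequence is shown.

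Chromosome 4 carried H3K27ac clusters in 13 of its 14 stretches of 100 kb in both replicates. It held 81 clusters in replicate 1 and 79 in replicate 2, or a density per Mb of 59.2 ± 1.05, against 51.0 ± 0.754 for the 5 long arms (2L, 2R, 3L, 3R and X; SD, n = 2). The difference between chromosome 4 and the long arms was 9.41 clusters per Mb in replicate 1 and 6.86 in replicate 2 (exact two-sided sign-flip permutation p = 0.5, the smallest that 2 replicates allow). Clusters covered 26.4% of the chromosome in replicate 1 and 21.9% in replicate 2, against 22.6% and 23.5% of the long arms. The covered share was therefore above the long arms in replicate 1, by 3.75 percentage points, and below them in replicate 2, at -1.56 points (mean 1.10 ± 3.76, exact two-sided sign-flip permutation p = 1). The heterochromatic scaffolds were covered far less, at 2.92% in replicate 1 and 2.19% in replicate 2, which is -20.5 ± 1.10 points from the long arms (SD, n = 2; exact two-sided sign-flip permutation p = 0.5).

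**Figure D1:**
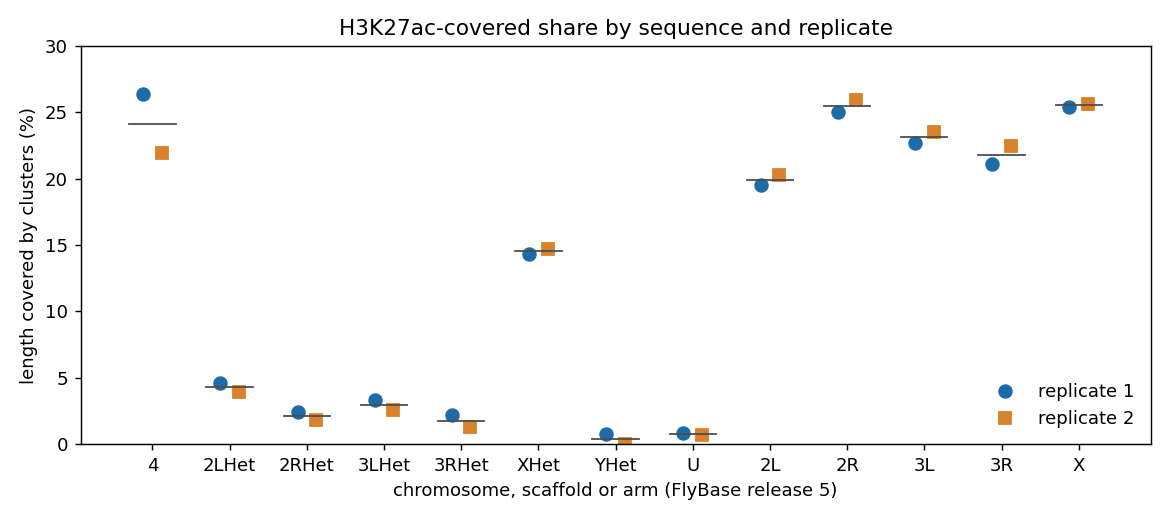
Share of each sequence covered by H3K27ac clusters (%, y axis) for chromosome 4, the 6 heterochromatic scaffolds, U and the 5 long arms (x axis); points are the 2 ChIP replicates and lines their means. The mean of chromosome 4, 24.2%, lies between the lowest and highest means of the long arms, 19.9 and 25.5%, XHet stands at 14.4 and 14.7%, and the other scaffolds lie under 5%; on chromosome 4 replicate 1 is the higher, on every long arm replicate 2.

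Along chromosome 4 the most covered stretch of 100 kb was the sixth, from 500001 to 600000, at 46.9% in replicate 1 and 38.5% in replicate 2. The third stretch, from 200001 to 300000, followed at 38.9% and 34.6%. The least covered stretch with any replicate cluster was the ninth, from 800001 to 900000, at 10.6% and 7.15%. The last stretch, from 1300001 to the end at 1351857, held no replicate cluster and only 2 combined clusters. Both replicates ranked the 14 stretches almost alike (Spearman rho 0.99 across stretches of 1 chromosome, as a description), and replicate 1 was the more covered in each of the 13 that had clusters.

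**Figure D2:**
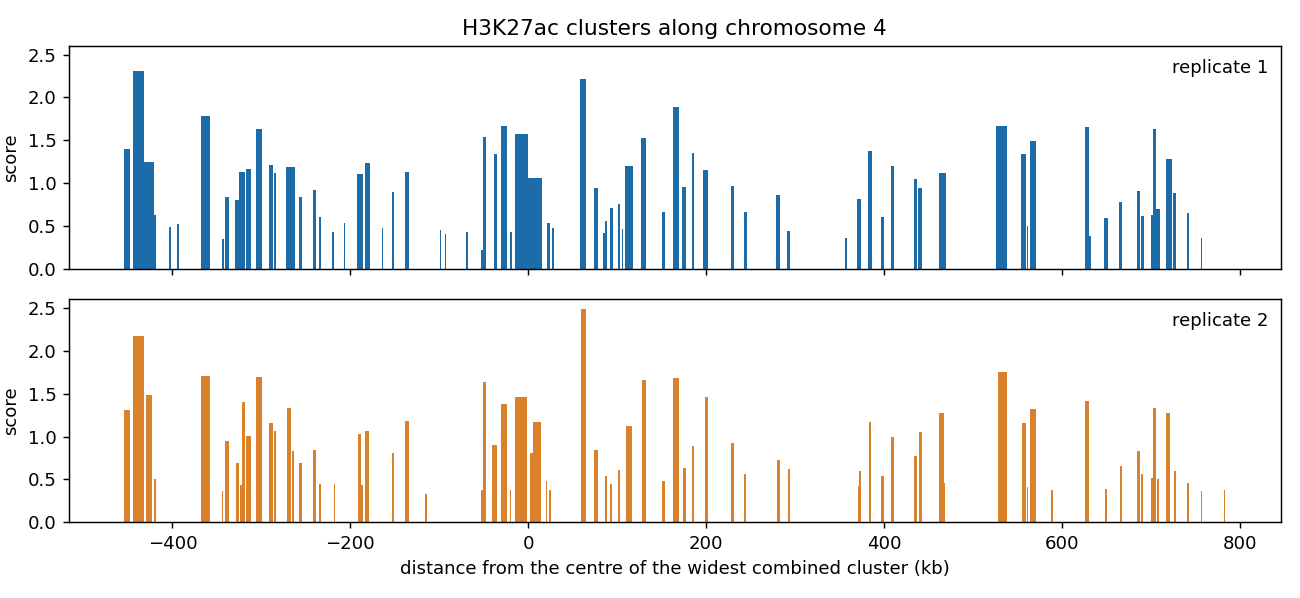
Clusters of replicate 1 (upper panel) and replicate 2 (lower panel) along chromosome 4, as bars as wide as the cluster and as high as its score (y axis), against distance from the centre of the widest combined cluster (x axis, kb). The same tall bars appear in both replicates, and both panels are empty at both ends of the chromosome.

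Gaps on chromosome 4 were longer at the median than those of the long arms, yet its longest gaps took a smaller part of the empty length. The median gap to the next combined cluster was 7630 bp (95% interval 5110 to 10540, 89 gaps), against 3687 bp (3532 to 3846, 7210 gaps) on the long arms. Intervals of medians come from order statistics and cover counting error only. Gaps of at least 20 kb numbered 10 on chromosome 4 and made up 39.0% of its total gap length, against 67.7% on the long arms. In the replicates this share was 42.9 and 50.7% on chromosome 4, against 73.7 and 72.3% on the long arms. Gaps under 1 kb were 16.9% of all on chromosome 4, against 22.4% on the long arms. The difference was smaller in the replicate lists, at 17.5 and 15.4% on chromosome 4 against 18.9 and 17.8% on the long arms.

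The widest gaps of chromosome 4 ran from 810480 to 872380 (61.9 kb), from 985730 to 1042054 (56.3 kb) and from 5994 to 61894 (55.9 kb), followed by 1105754 to 1142046 (36.3 kb) and 761588 to 795006 (33.4 kb). None of these 5 contained a cluster of either replicate. Gaps of 20 kb or more, a limit set after the gaps were seen, divided the chromosome into 11 groups of clusters, the largest with 25 clusters over 271.9 kb, from 446006 to 717908, which contains the most covered stretch. Within this group 20 of the 25 overlapped both replicates, against 76.7% over chromosome 4 and 65.0% over the whole combined list. The group of 14 clusters from 148006 to 299066 overlapped both replicates in all 14. The other group of 14, from 1142046 to 1273578, did so in 12.

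**Figure D3:**
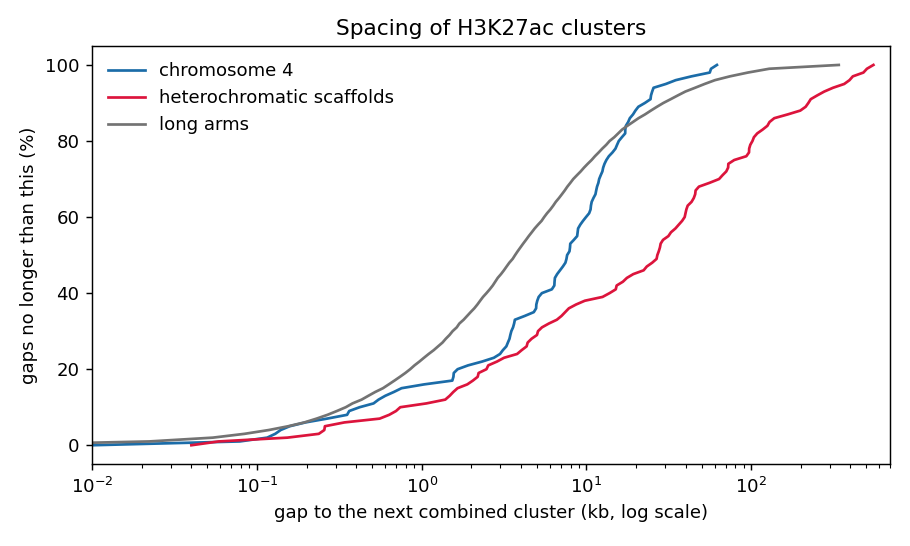
Cumulative share of gaps between neighbouring combined clusters (y axis, %) by gap length (x axis, kb, log scale) on chromosome 4, the heterochromatic scaffolds and the long arms. The chromosome 4 curve rises later than that of the long arms, with a median of 7630 against 3687 bp, and its 90th percentile is 22612 against 29268 bp. It ends earlier, at 61.9 against 339.8 kb, but these ends are the longest of 89 and of 7210 gaps and depend on the number of gaps. The scaffold curve lies far to the right, with a median of 26923 bp.

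The widest acetylated domain of chromosome 4 lay from 501096 to 531246 and spanned 30.15 kb with a score of 1.27 in the combined list. It was the only chromosome 4 cluster of at least 20 kb in the combined list, where it ranked 53rd by width. Replicate 1 had it as 2 clusters of 15.2 and 14.7 kb with scores of 1.58 and 1.06. Replicate 2 had it as 3 clusters of 13.2, 3.29 and 8.83 kb with scores of 1.46, 0.80 and 1.17. Both replicates scored its left piece highest, and the pieces summed to 27.6 ± 3.22 kb (SD, n = 2).

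A pair of broad domains near the left end of the chromosome nearly touched, with 10 bp between them. The left one, from 71630 to 84272, spanned 12.6 kb with a score of 2.18, and was a single cluster in each replicate, with scores of 2.30 in replicate 1 and 2.17 in replicate 2. The right one, from 84282 to 94858, spanned 10.6 kb with a score of 1.19, and measured 10.6 kb in replicate 1 but 6.75 kb in replicate 2. With a further cluster up to 98108 they formed a run of 26.5 kb that was 96.2% covered, the longest run of neighbouring clusters less than 1 kb apart on the chromosome.

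Among the other wide domains, that from 1042054 to 1054338 (12.3 kb, score 1.62) came right after the second widest gap, with scores of 1.67 in replicate 1 and 1.76 in replicate 2. The domain from 148006 to 158576 (10.6 kb, score 1.73) was almost identical in both lists, at 10.5 and 10.4 kb. The domains from 244022 to 253830 (9.81 kb, score 1.08) and from 977232 to 985730 (8.50 kb, score 1.06) were whole in replicate 1 and divided into 2 clusters in replicate 2. The rest of the 10 widest lay from 624854 to 633376 (8.52 kb, score 1.11), from 678652 to 685868 (7.22 kb, score 1.78) and from 210006 to 217212 (7.21 kb, score 1.61). All 10 overlapped clusters of both replicates, as did 98.7% of long-arm clusters of 4 kb or more. In all 10 the summed width was larger in replicate 1. Of all chromosome 4 clusters in both lists, 91.3% were covered more by replicate 1, against 43.8% on the long arms.

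The highest score of chromosome 4 belonged to a region that overlapped no cluster of either replicate. It lay from 1317652 to 1318652, was 1000 bp wide, and with a score of 2.57 ranked 11th in the combined list. A second such region from 4990 to 5994, 1004 bp wide with a score of 1.57, was the first cluster of the chromosome. These 2 lie near the ends of the assembled sequence, and the last cluster, from 1323612 to 1324896 (score 0.82), was in neither replicate list as well. Long arms showed the like: the highest score of 2L, 3R and X also belonged to a cluster in neither list. That of 2R and 3L belonged to a cluster in both. The narrowest cluster of either replicate list was 1300 bp wide, and 6 of the 9 chromosome 4 clusters in neither list were narrower than that. On the long arms 588 of 1194 such clusters were narrower, and on the scaffolds 7 of 21. The part of width in their absence was not tested.

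Of the clusters present in both replicate lists, the top one by score ran from 574536 to 581352, 6.82 kb wide with a score of 2.24 in the combined list. It scored 2.22 in replicate 1 and 2.49 in replicate 2, a mean of 2.35 ± 0.19 (SD, n = 2), and no other replicate 2 cluster of this chromosome scored as high. After it came the domain from 71630, with a mean of 2.24 ± 0.10, and that from 678652, with 1.89 in replicate 1 and 1.68 in replicate 2. Others of the 10 highest were more compact. The cluster from 465484 to 468714 was 3.23 kb wide with a score of 1.56 (replicates 1.54 and 1.64), and the cluster from 643404 to 648638 was 5.23 kb wide with a score of 1.54 (replicates 1.52 and 1.66). Of the 10 highest, 5 were also among the 10 widest.

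Combined clusters of chromosome 4 had higher scores than those of the long arms, with a median of 0.75 (95% interval 0.55 to 0.90) against 0.51 (0.50 to 0.53). The scaffolds were also higher, with a median of 0.66 (0.55 to 0.79). On chromosome 4, 59 of 90 clusters (65.6%) exceeded the median score of the whole list, 0.52. On the scaffolds 69 of 112 (61.6%) did so, against 49.4% on the long arms. The replicate lists gave medians of 0.89 and 0.83 on chromosome 4, against 0.69 and 0.74 on the long arms. In the combined list the median width was 3396 bp on chromosome 4 (95% interval 2758 to 3914), an interval that holds the 2900 bp of the long arms. The replicate lists gave median widths of 3584 and 3141 bp, against 2898.5 and 2985 bp. At the upper quartile of the combined list chromosome 4 clusters were narrower, 4867 against 5273 bp. The higher median width did not hold among clusters above the median score of their list, where it was 4354 bp against 5150 bp on the long arms.

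In each width class the median score was higher on the scaffolds than on the long arms. At 4 kb or more the scaffold interval held the long-arm median. The width classes, below 2 kb, 2 to 4 kb and at least 4 kb, were set after the widths were seen. From 2 to 4 kb the median score was 0.55 on chromosome 4 (interval 0.51 to 0.75, 35 clusters) and 0.76 on the scaffolds (0.61 to 0.85, 47 clusters), against 0.50 on the long arms (0.49 to 0.51). At 4 kb or more it was 1.13 on chromosome 4 (1.02 to 1.34, 34 clusters) and 1.23 on the scaffolds (0.92 to 1.44, 22 clusters), against 0.94 on the long arms (0.92 to 0.96). Below 2 kb it was 0.29 on chromosome 4 (0.25 to 0.36, 21 clusters) and 0.38 on the scaffolds (0.34 to 0.48, 43 clusters), against 0.32 on the long arms (0.318 to 0.325). In this class the replicate lists gave 0.42 ± 0.005 on chromosome 4 and 0.53 ± 0.007 on the scaffolds, against 0.46 ± 0.009 on the long arms (SD, n = 2). The replicate lists gave the same order from 2 to 4 kb, at 0.79 ± 0.02 on chromosome 4 and 0.98 ± 0.07 on the scaffolds, against 0.69 ± 0.03 on the long arms (SD, n = 2). At 4 kb or more they gave 1.26 ± 0.08 on chromosome 4 and 1.22 ± 0.02 on the scaffolds, against 1.11 ± 0.05 on the long arms (SD, n = 2), so chromosome 4 and the scaffolds stood in the other order than in the combined list. No test was made of these differences, as clusters of 1 list are not replicates.

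**Figure D4:**
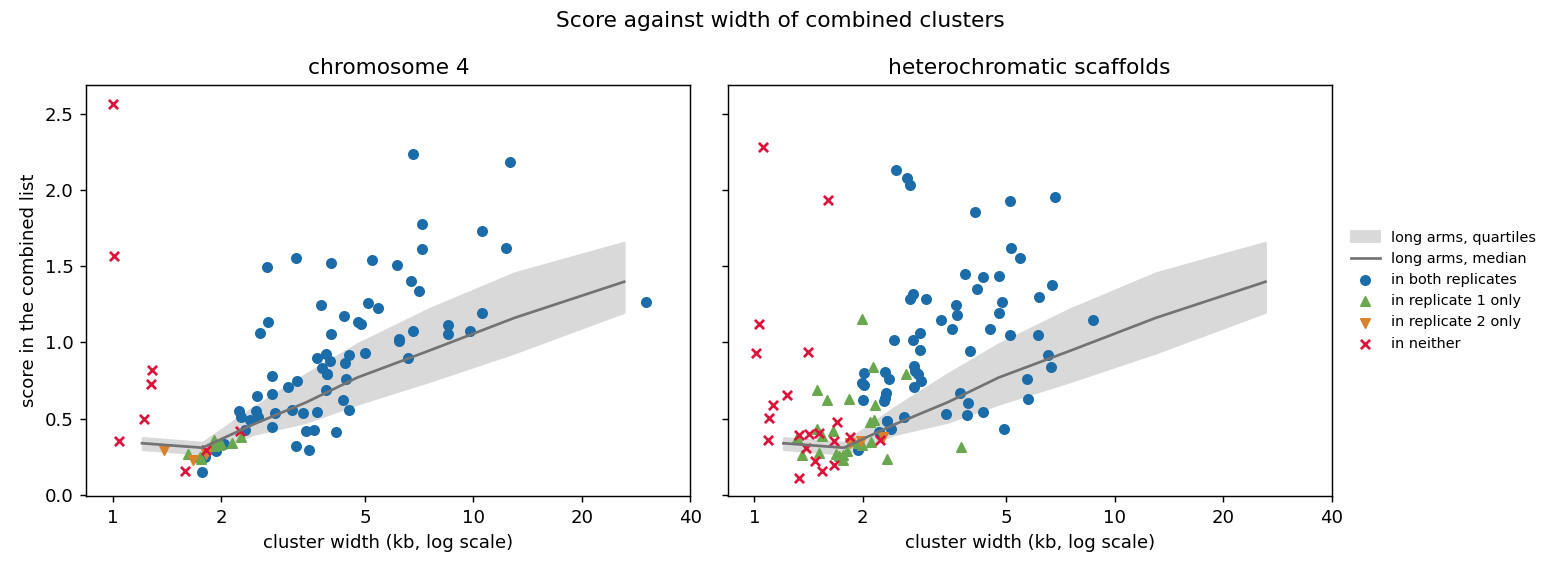
Score in the combined list (y axis) against cluster width (x axis, kb, log scale) for chromosome 4 (left) and the heterochromatic scaffolds (right), with symbols for overlap with the replicate lists; the grey line and band are the median and quartiles of the long arms. All clusters of 4 kb or more are in both replicates, and the highest scores near 1 kb belong to clusters in neither.

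On chromosome 4, 69 of 90 combined clusters (76.7%, exact Clopper-Pearson 95% interval 66.6 to 84.9) overlapped clusters of both replicates by at least 1 bp. The combined list was made for the same libraries, so this overlap is no independent evidence. Over the whole combined list the share was 65.0%, and on the long arms 65.1%. A further 9 overlapped replicate 1 only, 3 replicate 2 only and 9 neither, which is 10.0, 3.33 and 10.0%, against 8.05, 10.4 and 16.6% over the whole list. Counted for each replicate apart, 78 (86.7%) overlapped replicate 1 and 72 (80.0%) replicate 2, against 73.0 and 75.4% over the whole list. Clusters in both were wide and high, at 3926 bp and 0.90 by the median. Those in replicate 1 only were narrow and low, from 1616 to 2262 bp wide with scores from 0.23 to 0.38. Overlap went with width: all 34 clusters of 4 kb or more were in both replicates, 32 of 35 (91.4%, exact interval 76.9 to 98.2) from 2 to 4 kb, and 3 of 21 (14.3%, 3.05 to 36.3) below 2 kb. On the long arms these shares were 98.7, 78.9 and 9.01%, each within the interval for chromosome 4. These intervals are wide, take clusters as independent and cover counting error only, so they cannot show that the shares are alike. The higher share over all widths did not hold among clusters above the median score of their list, where it was 67.8% on chromosome 4 against 68.4% on the long arms.

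On the scaffolds 62 of 112 combined clusters (55.4%, exact interval 45.7 to 64.8) overlapped both replicates, below the 65.0% of the whole list. Another 26 (23.2%) overlapped replicate 1 only, against 8.05% over the whole list, and 3 (2.68%) overlapped replicate 2 only, against 10.4%. The other 21 (18.8%) overlapped neither replicate, near the 16.6% of the whole list. By width, 22 of 22 scaffold clusters of 4 kb or more were in both replicates, 37 of 47 (78.7%) from 2 to 4 kb and 3 of 43 (6.98%) below 2 kb, against 98.7, 78.9 and 9.01% on the long arms. Clusters below 2 kb were 38.4% of all on the scaffolds, against 29.8% on the long arms. Replicate 1 had 92 clusters on the scaffolds and replicate 2 had 67. Nearly all replicate 2 clusters there, 64 of 67 (95.5%), overlapped replicate 1, against 86.1% over all replicate 2 clusters, while 63 of 92 replicate 1 clusters (68.5%) overlapped replicate 2, against 88.9% over all replicate 1 clusters.

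XHet was the most covered scaffold, and its clusters sat toward its left end. All 9 combined clusters lay from 1290 to 84322, and the remaining 119.8 kb, or 58.7% of the scaffold, held no cluster in any list. Clusters covered 14.4% of it in replicate 1 and 14.7% in replicate 2, against 22.6 and 23.5% on the long arms. A gap of 35.0 kb parted a pair of low clusters, from 1290 to 3618 (score 0.48) and from 4356 to 8250 (score 0.53), from a dense group of 7 over 41.1 kb that was 71.4% covered. The highest of that group, from 73314 to 77622, had a score of 1.43, with 1.51 in replicate 1 and 1.42 in replicate 2. Next to it the widest, from 66614 to 73260, spanned 6.65 kb with a score of 0.84 and replicate scores of 0.89 and 0.90. The clusters from 48412 to 53202 (score 1.19) and from 55674 to 59210 (score 1.09) were also above 1 in both replicates, whereas those from 43248 to 48178 (score 0.43) and from 59824 to 62664 (score 0.79) were lower. The last, from 82052 to 84322 (score 0.38), overlapped replicate 2 only.

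2LHet held 7 combined clusters. The first, from 29512 to 36320, was the widest and the highest, at 6.81 kb and 1.95, with scores of 1.99 in replicate 1 and 2.39 for the higher of 2 clusters in replicate 2. The cluster from 167316 to 172184 (4.87 kb, score 1.26) was also in both lists, at 1.21 and 1.39. Also in both, the cluster from 254304 to 256602 had a score of 0.63, with 0.83 in replicate 1 and 0.53 in replicate 2. The other 4 were in 1 list or none. Those from 174400 to 175940 (score 0.39) and from 212724 to 214862 (score 0.84) were in replicate 1 only, that from 36986 to 38968 (score 0.35) in replicate 2 only, and that from 208640 to 209668 (1028 bp, score 1.12) in neither. The widest gap, from 38968 to 167316, took 34.8% of the scaffold.

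YHet had 2 narrow clusters, both in replicate 1 only. They lay from 206378 to 207874 (score 0.69 in the combined list) and from 304886 to 306480 (score 0.62), and were 1496 and 1594 bp wide. Replicate 2 listed no cluster on YHet.

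The 3 long scaffolds were marked by scattered compact clusters with long empty stretches between. On 2RHet, 33 combined clusters covered 2.79% of the sequence. Its widest, from 3195316 to 3201430, spanned 6.11 kb with a score of 1.05 and replicate scores of 1.09 in each. Its highest, from 1776538 to 1779016, was only 2.48 kb wide yet scored 2.13, with 2.17 in replicate 1 and 2.09 in replicate 2, and stood at the left edge of the widest gap, 504.5 kb long. Of the 33 clusters, 20 (60.6%) were in both replicates, near the 65.0% of the whole combined list.

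On 3LHet, 38 combined clusters covered 4.12% of the sequence, and none lay in its first 266.3 kb. The widest cluster of all scaffolds was here, from 599830 to 608536, at 8.71 kb with a score of 1.15, in replicate 1 as 2 clusters and in replicate 2 as 1. The highest score, 2.28 from 1581644 to 1582698, belonged to a region 1054 bp wide that was in neither replicate list. The widest gap, from 1808802 to 2189040, was 380.2 kb long and free of replicate clusters. Here 20 clusters (52.6%) were in both replicates, 8 (21.1%) in replicate 1 only, 10 (26.3%) in neither and 0 in replicate 2 only. Over the whole combined list these shares were 65.0, 8.05, 16.6 and 10.4%.

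3RHet had 23 combined clusters covering 2.44% of its length and the longest gap of the scaffolds, 551.3 kb from 222924 to 774258. Its widest cluster, from 1805352 to 1812034, spanned 6.68 kb with a score of 1.38 and was narrower in replicate 2, at 4.62 kb, than in replicate 1, at 6.04 kb. The highest score, 1.94 from 1661284 to 1662886, was again that of a region in neither list. Replicate 1 had 18 clusters here and replicate 2 had 11. A group of 4 from 1363280 to 1376280, picked after its values were seen, held 3 that were in replicate 1 only and 1 in neither.

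Across the scaffolds gaps were long, with a median of 26923 bp (interval 13808 to 39442, 106 gaps) against 3687 bp on the long arms, and gaps of at least 20 kb made up 96.9% of the gap length. Scaffold lengths come from the file headers and take no account of unsequenced bases. Whether reads could be placed on the repeats of the scaffolds was not tested.

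Replicate 1 scored chromosome 4 higher than replicate 2 did, while the long arms as a whole went the other way. Among 62 pairs of chromosome 4 clusters that overlapped only each other, replicate 1 had the higher score in 47 (75.8%), against 32.9% over all 4403 such pairs and 31.8% on the long arms. The median difference, replicate 1 minus replicate 2, was 0.10 on chromosome 4 (interval 0.06 to 0.14), against -0.07 on the long arms (-0.07 to -0.06). Each score is a value within its own list, so the differences are no measure of acetylation, but both groups were taken from the same 2 lists. The ranking was nevertheless shared, with a Spearman rho of 0.95 over the 62 pairs.

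Widths went the same way as scores. On chromosome 4 the replicate 1 cluster was the wider in 58 of the 62 pairs (93.5%), by a median of 298.5 bp, against 43.9% on the long arms, where the median difference was -58 bp. Of 117 full stretches of 1 Mb on the long arms, 28 were covered more in replicate 1, and none by as much as the 4.49 points of chromosome 4 (the largest was 3.09). As a ratio, replicate 1 over replicate 2, which was taken after the data were seen, chromosome 4 had 1.20, and 2 of the 117 stretches reached it, that of 3L from 23000001 to 24000000 (1.42) and the first of 2R (1.24). On the scaffolds replicate 1 was higher in 36 of 59 pairs (61.0%) and covered 0.729 points more, a ratio of 1.33 that is above the 1.20 of chromosome 4, with a median score difference of 0.05 (interval -0.0039 to 0.11). Among clusters above the median score of their list this share was 51.2% on the scaffolds. On XHet replicate 1 was higher in 3 of 8 pairs and the covered share, replicate 1 minus replicate 2, differed by -0.373 points, whereas each of the other 5 scaffolds was covered more in replicate 1. Among long-arm stretches of 1 Mb with at least 20 pairs, 2 of 112 reached the share of chromosome 4, the same stretches of 2R (81.5%) and 3L (81.0%). In 4 of the 112 replicate 1 was higher in more than 50% of pairs: these 2, the second of 2R (61.1%) and the last full one of 2L (63.0%). All 4 lay on the centromere side of their arms, where the first of 3R (36.8%) and the last full one of X (50%) did not pass 50%. The 2 replicates give 1 difference per sequence, so it cannot be told whether another pair of libraries would differ in the same way.

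**Figure D5:**
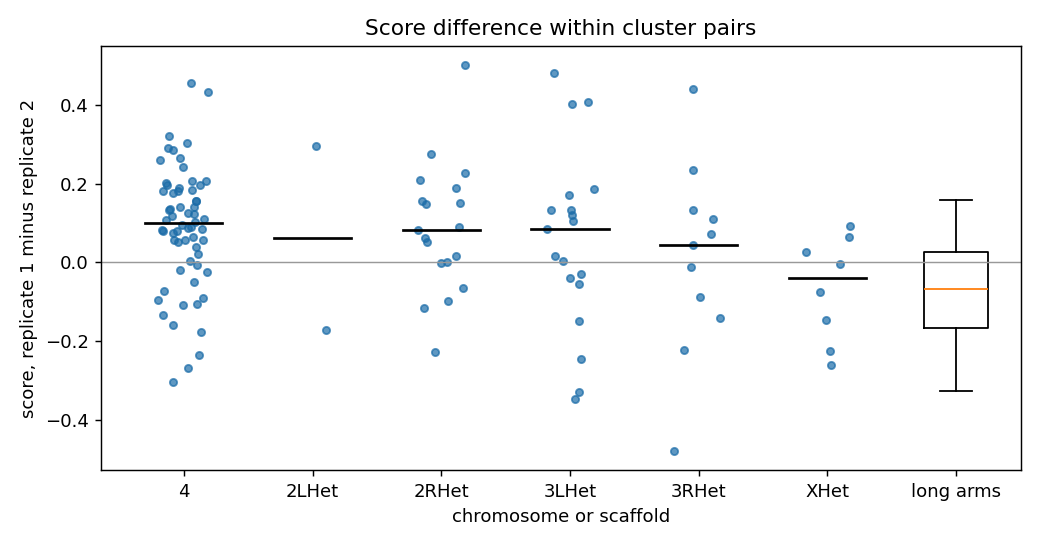
Score of replicate 1 minus that of replicate 2 (y axis) for pairs of clusters that overlap only each other, by sequence (x axis); points are pairs, black lines medians, and the box for the long arms shows the median and quartiles with whiskers at the 5th and 95th percentiles. Chromosome 4 has its median at 0.10 and the long arms at -0.07; YHet has no pair.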

How the data were processed

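Lists of enriched regions were analysed for 2 H3K27ac ChIP libraries, each library apart, and for the replicate set. Groups were read from the sample titles, and input lists were not analysed here. The submitters' processing notes name Bowtie 0.12.7 for alignment. How regions were called, with which threshold, and how replicates were joined is not given in the sources used. The authors deposited 1 score for each region. Its scale is not stated, so it served to rank and describe regions within a list. Means over the replicate lists and differences between them are given as descriptions of the lists, not as amounts of acetylation. Positions are on FlyBase release 5, per the file headers, and are printed as deposited, with a possible offset of 1 base.

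Width is end minus start. The regions named are, on chromosome 4, the 10 widest and 10 highest clusters, the first and last cluster and the 5 widest gaps. On each scaffold they are the widest and highest cluster and the widest gap, and every cluster where there are 10 or fewer. The members, this rule and the measures were chosen with earlier results of these data known. Functions for overlap, coverage, gaps and pairs were checked on simulated regions with planted answers. Alternatives were other overlap rules, clusters above the median score, merging below 500 bp, a minimum width, other denominators and each replicate alone. Width classes, gap limits and stretches of 100 kb and 1 Mb were set after the data were seen. Software was Python 3.11.15 with pandas 2.3.3, NumPy 2.4.6, SciPy 1.17.1 and Matplotlib 3.10.9.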

Additional observations from a re-analysis of the deposited data

How the results depend on the processing

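Of 65 values under other settings, 56 kept their direction and either lay within the spread or interval of the reported value or came from a contrast whose exact test 2 replicates cannot pass, judged on direction alone. With 2 replicates, a value without 1 of them always lies within the SD, so only its direction could change. Replicate 1 minus replicate 2 in clusters per Mb was set against a spread in points. The count of 56 is therefore no measure of robustness. With each replicate left out in turn, chromosome 4 minus the long arms ranged in covered share from -1.56 points without replicate 1, which turned the direction, to 3.75 points without replicate 2, and the scaffolds from -21.3 to -19.7 points. The scaffold contrast was -15.2 points among clusters above the median score and -18.9 points with a minimum width. In clusters per Mb, another unit than points, replicate 1 minus replicate 2 was 2.69 on the scaffolds. A minimum width of 1300 bp in the combined and 2000 bp in the replicate lists moved the share of chromosome 4 clusters in both replicates to 65.5%, beside 56.5% on the long arms; fewer replicate clusters remain by construction. Keeping clusters above the median score moved, by construction, the medians of chromosome 4 to 4354 bp and a score of 1.05, and those of the scaffolds to 2876 bp, a score of 0.95 and a gap of 40780 bp. Under it the share of clusters in both replicates was 67.8% on chromosome 4 against 68.4% on the long arms, so the order reported above did not hold, and replicate 1 was higher in 51.2% of scaffold pairs. Measured between centres, the median gap of chromosome 4 was 11619 bp against 8909.5 bp on the long arms. No paired analysis was possible because the lists analysed here are of ChIP libraries alone, so ChIP and input could not be paired by number. Contrasts between sequences were taken within each replicate. Depth is unknown, and few clusters and few placeable reads cannot be told apart on the scaffolds.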

Other observations

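Replicate clusters missing from the combined list numbered 6 on these sequences, all of them in replicate 1. They were 3 of its 81 clusters on chromosome 4 and 3 of its 92 on the scaffolds. On chromosome 4 they lay from 309084 to 310670 (score 0.54), from 416434 to 417752 (score 0.46) and from 621113 to 622435 (score 0.46). On 2RHet they lay from 737981 to 739530 (score 0.41) and from 3170047 to 3171540 (score 0.44), and on 3RHet from 778806 to 780427 (score 0.68). They were 1318 to 1621 bp wide, and every replicate 2 cluster of these sequences was in the combined list. On the long arms 19 of 6012 replicate 1 clusters and 49 of 6139 replicate 2 clusters were missing from it.

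Clusters of at least 4 kb in the combined list were divided into several clusters in 1 of 34 cases in replicate 1 and in 6 of 34 in replicate 2 on chromosome 4, against 24.9 and 21.7% on the long arms. These shares are not matched by width: 1 of the 34 spanned at least 20 kb, against 166 of 2571 on the long arms. The difference between replicates was not tested. The clusters of U, which hold sequence of unknown place, had replicate 1 higher in 13 of 27 pairs and were covered at 0.856% in replicate 1 and 0.679% in replicate 2.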
